A study of Mus musculus with 8 samples.

Results

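The genes described here encode metabotropic glutamate receptors (Grm2, Grm3, Grm4, Grm5, Grm7 and Grm8) and the postsynaptic adaptors Homer2 and Homer3. They were chosen by gene name from the deposited count table, where all 8 were found among 46078 gene entries. The study compared hippocampal RNA from Cre mice, hemizygous for Tg(Camk2a-cre)2Gsc (the CamiCre line), with that from wild-type (WT) mice. There were 4 libraries in each group, from mice 9 weeks old on the C57BL/6J strain. In the CamiCre line regulatory DNA of Camk2a drives Cre recombinase in forebrain excitatory neurons, and the labels name no floxed allele in either group. Whether the 4 libraries of a group are 4 animals is not stated in the labels, so the p-values measure the spread between these libraries, which may be technical.

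Metabotropic glutamate receptors are G protein-coupled receptors that answer synaptically released glutamate more slowly than the ion channel receptors. Group I receptors couple to Gq, phospholipase C and calcium release and sit mainly around the postsynaptic density. Group II and group III receptors couple to Gi and Go and mostly restrain transmitter release from presynaptic terminals, and Grm3 is also expressed by astrocytes. Homer proteins bind group I receptors through an EVH1 domain and, through a coiled coil, tie them to inositol trisphosphate receptors and Shank scaffolds.

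The libraries held 21339996 to 27826871 counts in Cre and 24289522 to 26950207 counts in WT. All 8 genes passed the filter on low counts, with 124 counts (Grm8) as the lowest value of any of them in a library. Levels are counts per 1000000 normalised library counts (CPM). Markers of dentate granule neurons summed to 340 to 477 CPM in Cre and 371 to 438 CPM in WT, and those of CA1 pyramidal neurons to 903 to 1130 and 1040 to 1130 CPM, so the principal neurons of hippocampus were represented in both groups. Syt2, the gene named in the title of the series, was at 164 to 188 CPM in Cre libraries and 32.8 to 41.5 CPM in WT libraries. WT replicate 1 stood apart by its choroid plexus markers (6 tested markers averaged 5.94 log2 CPM there and 0.93 to 2.47 elsewhere), and Cre replicate 1 by its microglia markers (10 markers averaged 5.57 log2 CPM there and 5.01 to 5.18 elsewhere).

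In edgeR's quasi-likelihood test, none of the 8 genes differed between Cre and WT at the threshold of 0.05 on a Benjamini-Hochberg adjusted p over 15859 genes. The adjusted p was 0.999 for each of them in that edgeR test. The background of this comparison was low, with 0.0315% of all genes tested past that threshold (5 genes, 4 higher and 1 lower in Cre). At an unadjusted p under 0.05 there was 1 member, Grm5, against 3.5% of all genes tested. DESeq2 and limma voom also called 0 of the 8. The fold changes ran from -0.11 to 0.14 on the log2 scale, with a median of -0.025 (median over all genes 0). Of the 8, 4 lay below 0, as did 49.8% of all genes tested.

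**Figure D1:**
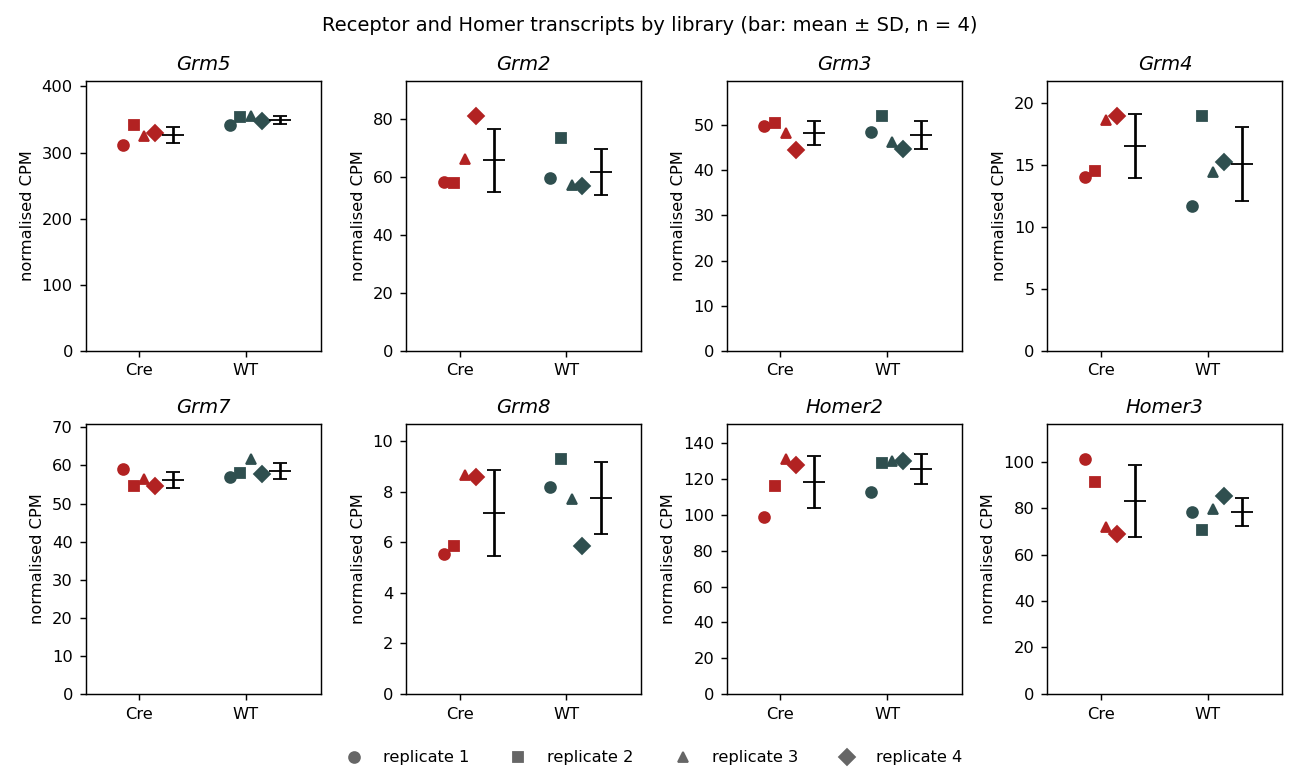
Normalised CPM (vertical axes, from 0) of the 8 genes in each Cre and WT library. Black bars give the mean and SD of each group, and marker shape gives the replicate number. The labels do not state that this number pairs libraries. The Cre and WT points interleave in every panel except Grm5, where the highest Cre library (341.1 CPM) lies just under the lowest WT library (341.3 CPM).

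The group I receptor of the set was Grm5, which signals through Gq and takes part in long-term depression of hippocampal synapses. The gene (chromosome 7, 87584168 to 88134907, plus strand, with positions here in GRCm38) was the most abundant of the 8 both in CPM and per kilobase of merged exon. Its level was 311, 341, 325 and 329 CPM in the 4 Cre libraries, against 341, 354, 355 and 348 CPM in the 4 WT libraries. All Cre libraries lay below all WT libraries, with a gap of 0.19 CPM between Cre replicate 2 (341.1 CPM) and WT replicate 1 (341.3 CPM). Groups that do not overlap were found in 2.31% of all genes tested.

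Grm5 averaged 326 ± 12.5 CPM in Cre and 350 ± 6.29 CPM in WT (SD, n = 4 each), a log2 fold change of -0.10 (SE 0.04). In percent this was -6.63%, with a 95% confidence interval from -11.6% to -1.43%. The unadjusted p was 0.0171 in edgeR and 0.0286 in an exact permutation test (2-sided, n = 4 per group), the smallest that 4 against 4 libraries allow. Neither that edgeR value nor any alternative analysis passed after adjustment over all genes. The unadjusted p was 0.0533 in edgeR without Cre replicate 1, where Grm5 was lowest, and 0.0509 without WT replicate 3, where it was highest.

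The libraries with lower Grm5 had higher microglia markers. All 10 microglia markers passed the filter and had fold changes above 0 (median 0.19 on the log2 scale, 0 past the threshold by edgeR), and they summed to 427 to 567 CPM in Cre and 392 to 424 CPM in WT. Over the 8 libraries Grm5 and the mean of these markers had Pearson's r = -0.88 (exact permutation p = 0.000818, adjusted p = 0.0851 over 104 pairs of a member and a marker list). Spearman's rho was -0.976 (exact permutation p = 0.000397, adjusted p = 0.0413), and r was -0.79 without the 2 libraries farthest from the median of the markers. The permutation shuffled all 8 libraries across Cre and WT. Both Grm5 and the mean of the markers (5.14 to 5.57 log2 CPM in Cre, 5.01 to 5.13 in WT) separated the groups. These permutation p-values therefore also reflect the difference between Cre and WT, not only a relation among libraries of a group. Within Cre r was -0.83 and within WT -0.91, each over 4 libraries only. The 10 astrocyte markers, 9 of them above 0, summed to 5610 to 6210 CPM in Cre and 5210 to 5590 CPM in WT. By mean log2 CPM they overlapped between groups (7.91 to 8.05 in Cre, 7.82 to 7.94 in WT). All 10 oligodendrocyte markers also lay above 0 (median 0.13), though their mean log2 CPM overlapped between groups (7.30 to 7.78 in Cre, 7.36 to 7.47 in WT). Among neuronal lists, 1 of 6 CA1 markers (median -0.07) and 2 of 8 markers of CA2 and CA3 (median -0.06) lay above 0. So did 6 of 8 dentate granule markers and 6 of 10 interneuron markers (median 0.01 each). In each of these lists 0 markers passed the threshold by edgeR. The part of these cells in the Grm5 values was not tested. In bulk tissue, fewer cells of a type and less RNA per cell cannot be told apart.

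Of the group II receptors, Grm2 is a presynaptic autoreceptor found on dentate granule neurons and their mossy fibres (chromosome 9, 106643095 to 106656082, minus strand). It was at 58.0, 57.8, 65.9 and 80.8 CPM in the Cre libraries, against 59.5, 73.3, 57.1 and 56.7 CPM in the WT libraries. A single library was high in each group, Cre replicate 4 and WT replicate 2, and the groups overlapped. The mean was 65.6 ± 10.8 CPM in Cre and 61.6 ± 7.89 CPM in WT (SD, n = 4 each), a log2 fold change of 0.09 (SE 0.11) whose 95% interval ran from -9.20% to 24.8%. The sign turned without Cre replicate 4 (-0.02) and the value was 0.19 without WT replicate 2.

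Grm3, the group II receptor shared by neurons and astrocytes (chromosome 5, 9485541 to 9725170, minus strand), was among the steadiest of the 8. Its level was 49.9, 50.4, 48.3 and 44.6 CPM in Cre libraries, against 48.5, 52.0, 46.3 and 44.7 CPM in WT libraries. The groups covered nearly the same range, with a log2 fold change of 0.01 (SE 0.06) and a 95% interval from -7.31% to 9.44%. The sign turned in 4 of the 8 fits that left out 1 library, without Cre replicate 1 or 2 or WT replicate 3 or 4 (lowest value -0.02). Astrocyte markers lay higher in Cre by their sum but overlapped between groups by their mean log2 CPM, as given above. Grm3 averaged 48.3 ± 2.64 CPM in Cre and 47.9 ± 3.17 CPM in WT (SD, n = 4 each).

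Group III receptors differed widely in level. Grm7, a low-affinity receptor placed in the active zone of terminals (chromosome 6, 110645581 to 111567230, plus strand), was at 59.1, 54.6, 56.4 and 54.5 CPM in Cre libraries, against 57.0, 57.9, 61.6 and 57.8 CPM in WT libraries. The groups overlapped through Cre replicate 1, the highest of the Cre libraries. The log2 fold change was -0.06 (SE 0.04), with a 95% interval from -10.0% to 2.29%, and it was -0.03 without WT replicate 3 and -0.09 without Cre replicate 1. Grm7 had a coefficient of variation of 4.09% over all libraries, 1.54 times the 2.65% that counting alone would give.

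Grm4, a presynaptic receptor best known from cerebellar parallel fibres (chromosome 17, 27422387 to 27521403, minus strand), was at 14.0, 14.5, 18.6 and 18.9 CPM in Cre libraries, against 11.7, 18.9, 14.4 and 15.2 CPM in WT libraries. The WT libraries held both the lowest value and one of the highest. The log2 fold change was 0.14 (SE 0.14), and the interval, from -10.4% to 34.7%, was the second widest of the set. It was 0.27 without WT replicate 2 and 0.03 without WT replicate 1.

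Grm8, a high-affinity presynaptic receptor (chromosome 6, 27275119 to 28135178, minus strand), was the least abundant. It had 5.52, 5.86, 8.65 and 8.56 CPM in Cre libraries, against 8.18, 9.27, 7.72 and 5.84 CPM in WT libraries, from 124 to 250 counts per library. Cre replicates 1 and 2 and WT replicate 4 were low, and the other 5 libraries were high. The mean was 7.15 ± 1.69 CPM in Cre and 7.75 ± 1.43 CPM in WT (SD, n = 4 each), a log2 fold change of -0.11 (SE 0.17). Its 95% interval ran from -28.3% to 19.3%, the widest of the set. Leaving out 1 library moved the value between -0.22 (without WT replicate 4; -0.22 also without Cre replicate 3 and -0.21 without Cre replicate 4) and -0.0056 (without Cre replicate 1). It was -0.01 without WT replicate 2 and -0.03 without Cre replicate 2. With Cre replicate 1 and WT replicate 1 both left out, a choice made after seeing the data, the value was 0.02.

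Homer2, a long coiled-coil Homer (chromosome 7, 81600481 to 81707527, minus strand), was at 99.0, 116, 131 and 128 CPM in Cre libraries, against 113, 129, 130 and 130 CPM in WT libraries. Replicate 1 was the lowest library in each group, and the groups overlapped. The mean was 118 ± 14.6 CPM in Cre and 125 ± 8.11 CPM in WT (SD, n = 4 each), a log2 fold change of -0.08 (SE 0.08) with a 95% interval from -16.1% to 6.27%. It was -0.0051 without Cre replicate 1, and without Cre replicate 3 or WT replicate 1 it was -0.13.

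Homer3, best known from cerebellar Purkinje cells (chromosome 8, 70282827 to 70294361, plus strand), was at 101, 91.4, 71.7 and 68.9 CPM in Cre libraries, against 78.3, 70.4, 79.5 and 85.2 CPM in WT libraries. The Cre libraries held the 2 highest and the lowest values, so the WT values fell mostly between them. The mean was 83.3 ± 15.7 CPM in Cre and 78.4 ± 6.10 CPM in WT (SD, n = 4 each), a log2 fold change of 0.09 (SE 0.11) with a 95% interval from -9.48% to 24.7%. Without Cre replicate 1 the sign turned (-0.02), and without Cre replicate 4 the value was 0.17. Merged exons of Homer3 overlap those of Ddx49, an RNA helicase gene on the opposite strand, over 874 bases (25.4% of its exon length), and the strand setting of the counting is not given in the sources used here. Ddx49 was at 28.3 to 32.3 CPM in Cre libraries and 27.6 to 30.4 CPM in WT libraries, with a log2 fold change of 0.05 (SE 0.05).

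**Figure D2:**
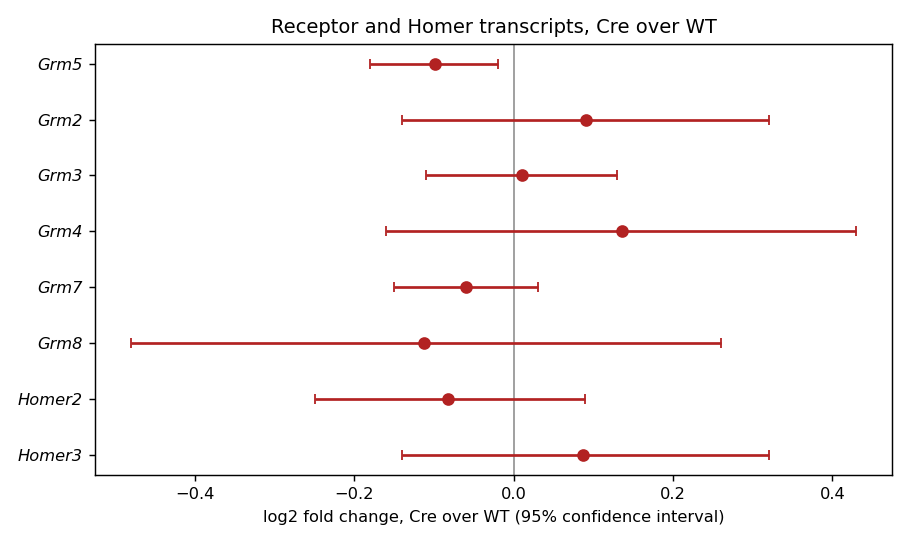
Log2 fold change, Cre over WT, of the 8 genes (points) with 95% confidence intervals from the edgeR fit across all genes (bars). The interval of Grm5 runs from -0.18 to -0.02 and leaves out 0, before any adjustment over genes, and those of the other 7 genes include 0.

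Levels can be compared between genes only per transcript length, and here CPM were divided by the merged exon length of each gene in GENCODE M21. In CPM per kilobase (kb), Grm5 was highest (31.9 ± 1.22 in Cre, 34.1 ± 0.61 in WT, SD, n = 4 each), followed by Homer3 (24.2 ± 4.56 in Cre, 22.8 ± 1.77 in WT). Next came Grm3 (15.8 ± 0.87 in Cre, 15.7 ± 1.04 in WT) and Grm2 (13.4 ± 2.21 in Cre, 12.6 ± 1.61 in WT), whose library ranges overlapped. Grm7 (9.54 ± 0.37 in Cre, 9.95 ± 0.35 in WT) and Homer2 (9.38 ± 1.16 in Cre, 9.94 ± 0.64 in WT) also overlapped in range, and Grm4 (2.76 ± 0.43 in Cre, 2.52 ± 0.49 in WT) and Grm8 (0.72 ± 0.17 in Cre, 0.78 ± 0.14 in WT) were lowest. The other neighbours in this order did not overlap in range, and the order of the means was the same in both groups. Homer2 has 12.6 kb of merged exon and Homer3 3.44 kb, so Homer2 was higher in CPM and Homer3 higher per kb of merged exon. Merged exons join all annotated transcripts of a gene, 9 for Homer2, 8 for Homer3 and 1 for Grm3, and are not the length of any single transcript. The annotation behind the counts is not given in the sources used here. Other exon sets would move these levels, not equally between genes, and could change their order.

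**Figure D3:**
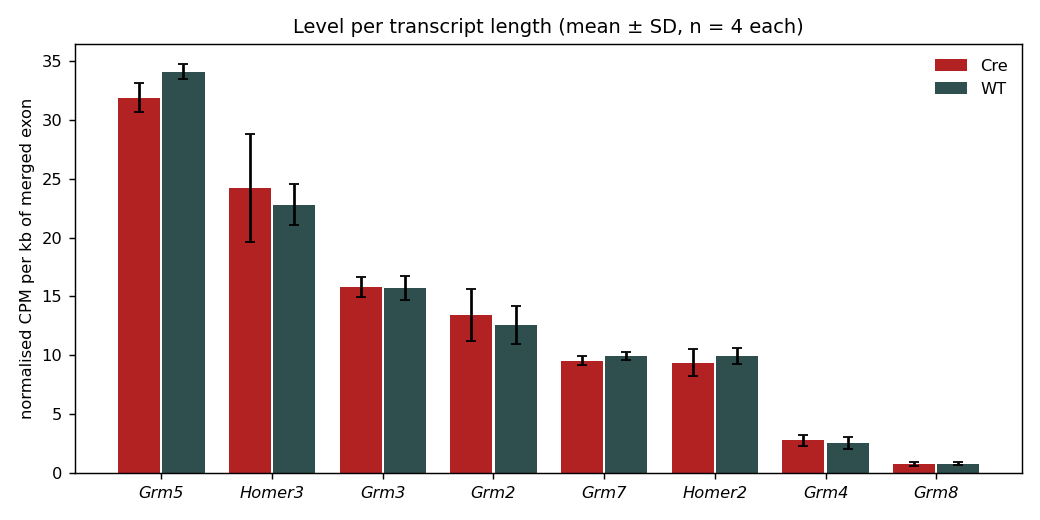
Mean normalised CPM per kb of merged exon (vertical axis, from 0) of the 8 genes in Cre (left bar of each pair) and WT (right bar), with SD over 4 libraries. Levels fall from Grm5 at 31.9 in Cre and 34.1 in WT to Grm8 at 0.72 in Cre and 0.78 in WT.

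Relatives of these 8 genes include Grm6, the receptor of retinal bipolar cells, and Homer1, whose short form is induced by activity. Homer1 was at 148 ± 23.9 CPM in Cre and 151 ± 29.6 CPM in WT (SD, n = 4 each), a log2 fold change of -0.03 (SE 0.13). In replicates 1 to 4 it was at 121, 148, 143 and 179 CPM in Cre, against 119, 151, 144 and 190 CPM in WT. The order by replicate number was the same in both groups, though the labels state no pairing by that number. Only if same-numbered libraries were paired would the unpaired SE count a shared spread as noise. Gene counts do not separate the short and long Homer1 forms. Grm6 had 0 counts in every Cre library and 1 count in 1 WT library, and was not tested.

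None of the tested genes from the 4 lists of relatives, effectors and partners passed the threshold (0 of 42 in edgeR, and 0 with an unadjusted p under 0.05). In the Gq arm, which carries the group I signal, 7 of 10 genes had fold changes below 0 (median -0.036), with 49.8% of all genes tested below 0. The lowest was Gna14, a Gq family alpha subunit, with 0.787 ± 0.15 CPM in Cre and 1.03 ± 0.12 CPM in WT (-0.39, SE 0.23). It was also the least abundant gene of this list, and its unadjusted p was 0.108 in edgeR. Its groups did not overlap, as was the case for 2.31% of all genes tested. The highest was Plcb4, a phospholipase C gene, at 22.4 ± 2.85 CPM in Cre and 21.5 ± 1.76 CPM in WT (0.06, SE 0.09).

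In the Gi and Go arm, which serves groups II and III, 4 of 9 genes lay below 0 (median 0.001). The ends of that list were the inhibitory alpha subunit genes Gnai1, at 208 ± 9.67 CPM in Cre and 216 ± 6.05 CPM in WT (-0.06, SE 0.04), and Gnai3, at 35.4 ± 0.84 CPM in Cre and 33.5 ± 1.87 CPM in WT (0.08, SE 0.05). Of 22 binding partners and regulators, 15 lay below 0 (median -0.023). Siah1a, a ubiquitin ligase that binds group I receptors, was lowest at 22.8 ± 1.23 CPM in Cre and 24.1 ± 0.77 CPM in WT (-0.08, SE 0.05). Grasp, which encodes the scaffold tamalin, was highest at 75.9 ± 5.78 CPM in Cre and 72.5 ± 1.73 CPM in WT (0.07, SE 0.05; SD, n = 4 each).

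**Figure D4:**
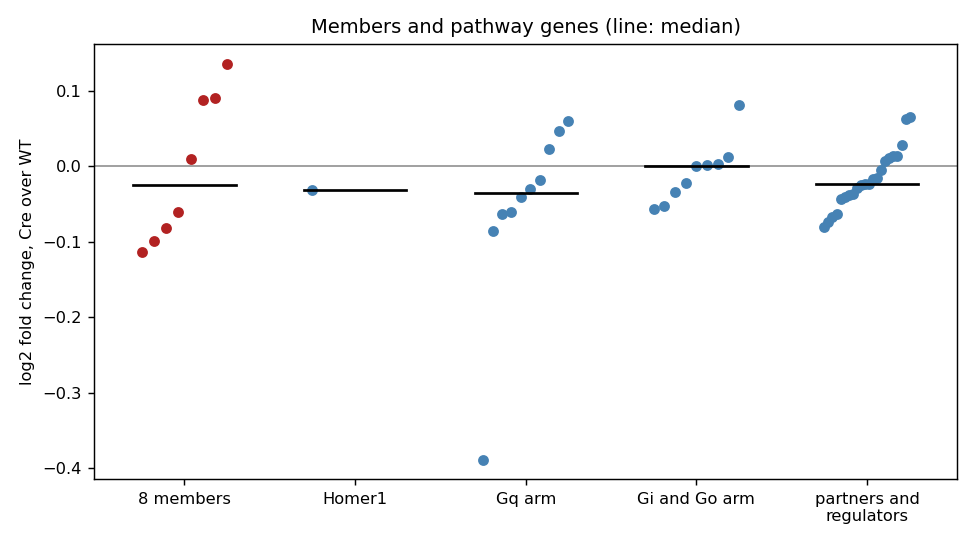
Log2 fold change, Cre over WT, of the 8 genes (red) and of the tested genes of each list (blue), sorted within a list, with the median as a black line. The medians lie between -0.036 and 0.001. The point farthest from 0 is Gna14 at -0.39, a gene of low level (0.787 CPM in Cre, 1.03 CPM in WT; unadjusted p = 0.108 in edgeR).

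The 8 genes differed in how much they varied between libraries. The coefficient of variation over all libraries was 4.09% for Grm7, 4.56% for Grm5 and 5.63% for Grm3, and 14.0% for Homer3, 14.2% for Grm2, 17.0% for Grm4 and 19.9% for Grm8. Within groups, which leaves out the difference between Cre and WT, Grm5 varied least (2.93%), ahead of Grm7 (3.70%). Counting error alone would give 1.09% for Grm5 and 7.54% for Grm8, so each gene varied more than its depth sets, by 1.54 times (Grm7) to 6.24 times (Homer3).

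Some of this spread was shared. Of the 28 pairs among the 8 genes, Grm8 and Homer3 had the strongest relation over the 8 libraries, and it was inverse (Pearson's r = -0.94, exact permutation p = 0.000298, adjusted p = 0.00833 over the 28 pairs). Spearman's rho was -0.905 (exact permutation p = 0.00456, adjusted p = 0.128), and r was -0.94 without the 2 libraries farthest from the median of Grm8. Within Cre r was -0.99 and within WT -0.93, each over 4 libraries only. Homer3 was above 85 CPM in Cre replicates 1 and 2 and WT replicate 4, the same 3 libraries in which Grm8 was below 6 CPM. No other pair had an adjusted p under 0.05, and 5 pairs had an unadjusted one in this permutation test.

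**Figure D5:**
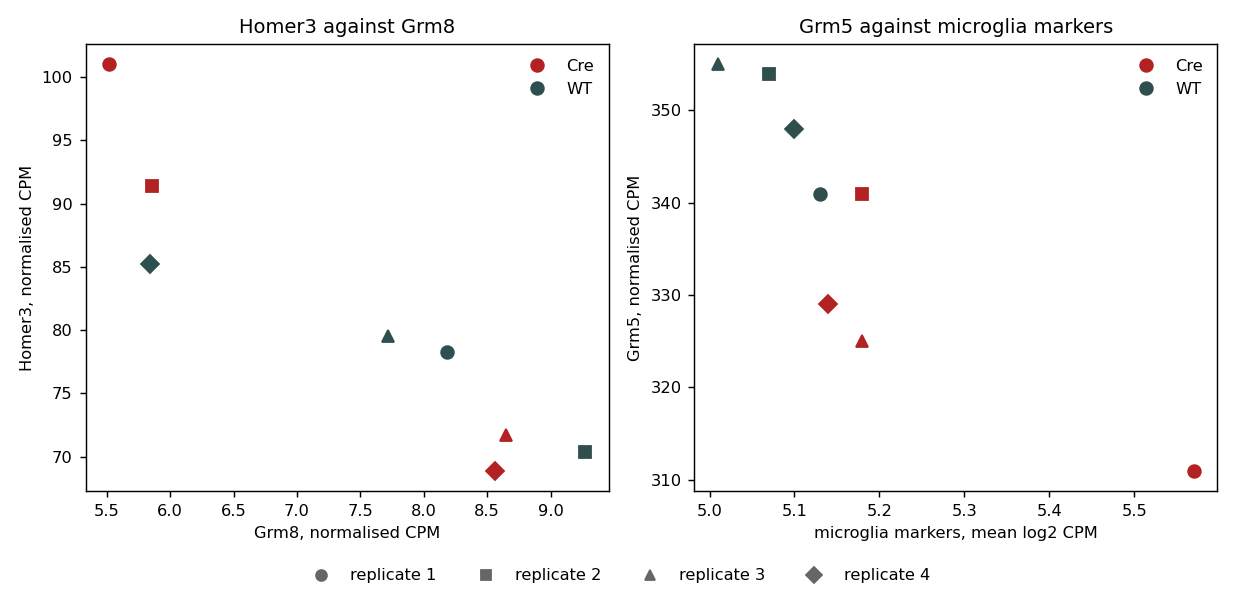
Left, Homer3 against Grm8, both in normalised CPM; right, Grm5 (normalised CPM) against the mean log2 CPM of 10 microglia markers; each point is a Cre (red) or WT (dark) library, marker shape gives the replicate number, and the axes do not start at 0. Points run from high Homer3 at low Grm8 to the reverse (r = -0.94), and Cre replicate 1, at 5.57 on the microglia axis, has the lowest Grm5.

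The same libraries were compared with the marker lists. Homer3 had r = 0.86 with markers of oligodendrocyte precursors (exact permutation p = 0.00427; rho = 0.833, p = 0.0154) and 0.83 with those of oligodendrocytes (exact permutation p = 0.00878; rho = 0.643, p = 0.0962). Neither relation passed after adjustment over the 104 pairs (adjusted p = 0.163 and 0.165 for r, 0.5 for each rho), and without the 2 libraries farthest from the median of the markers r was 0.60 and 0.22. The 6 precursor markers summed to 304 to 370 CPM in Cre and 322 to 330 CPM in WT, and the 10 oligodendrocyte markers to 4090 to 5250 CPM in Cre and 4080 to 4530 CPM in WT. Grm3 had r = 0.89 with endothelial markers (exact permutation p = 0.00471, adjusted p = 0.163; rho = 0.786, p = 0.0279, adjusted p = 0.5; r = 0.76 without the 2 farthest libraries), which summed to 130 to 152 CPM in Cre and 118 to 148 CPM in WT over 6 markers. Grm2 had r = -0.82 with markers of CA2 and CA3 pyramidal neurons (exact permutation p = 0.00642, adjusted p = 0.165; rho = -0.738, p = 0.0458, adjusted p = 0.5; r = -0.76 without the 2 farthest libraries), 8 markers that summed to 320 to 398 CPM in Cre and 328 to 383 CPM in WT. Homer3 also had r = -0.82 with CA1 markers (exact permutation p = 0.0127, adjusted p = 0.165), and -0.55 without the 2 farthest libraries. Homer2 had r = 0.85 with interneuron, -0.85 with microglia and 0.78 with CA1 markers, and Grm5 -0.83 with thalamus and habenula markers. For these, adjusted p of r was 0.165 to 0.234 in the exact permutation test. Without the 2 farthest libraries r was, in the same order, 0.53, -0.33, 0.85 and -0.65. In that order rho was 0.667, -0.405, 0.69 and -0.667 (exact permutation p from 0.0694 to 0.327). None of the 104 relations had an adjusted p under 0.05 by Pearson's r in this permutation test. By Spearman's rho 1 had, that of Grm5 with the microglia markers. An unadjusted p under 0.05 by Pearson's r was found for 16 of the 104. The part of these cell types in the receptor and Homer values was not tested.

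The genes whose log2 CPM ran most like each member over the 8 libraries were searched among 14265 genes and are given as a description, since so large a search yields high values in any 8 libraries. Grm5 ran most like Pnma2 (r = 0.963), a neuronal antigen gene, and Tdrd3 (r = 0.961), a tudor domain gene. For the group II receptors these were Ngef (r = 0.966) and Glt8d2 (r = 0.961) with Grm2, and A230072C01Rik (r = 0.981) and Fubp3 (r = 0.959) with Grm3. For group III they were Ddx18 (r = 0.983) and St8sia4 (r = 0.980) with Grm4, Megf11 (r = 0.942) and Fam132a (r = 0.938) with Grm7, and Ica1l (r = 0.979) and Gm38400 (r = 0.970) with Grm8. Homer2 ran most like Znhit3 (r = 0.974) and Zrsr1 (r = 0.968), and Homer3 most like Tbc1d5 (r = 0.971) and Wscd1 (r = 0.965). Of these, Pnma2 was at 71.3 ± 2.38 CPM in Cre and 77.1 ± 1.60 CPM in WT, and Wscd1 at 136 ± 12.9 CPM in Cre and 134 ± 6.85 CPM in WT (SD, n = 4 each).

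The authors' deposited table gave log2 fold changes of -0.10 for Grm5, -0.06 for Grm7, -0.11 for Grm8 and -0.08 for Homer2. For Grm2, Grm3, Grm4 and Homer3 the authors' deposited table gave 0.09, 0.01, 0.14 and 0.09. Its p-value for Grm5 was 0.0537, the lowest of the 8 in the authors' deposited table, and the highest was 0.853 for Grm3.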

How the data were processed

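Poly(A) RNA of mouse hippocampus was sequenced with a strand-keeping kit, per the labels' protocols. The deposited table holds raw counts per gene symbol and library. STAR 2.6.1d, featureCounts and edgeR 3.11 were used on GRCm38, per the submitters' processing notes. The authors deposited a second table with a log2 fold change, a log2 abundance, a p-value, and 2 columns treated as scores (a signed fold and the abundance on a linear scale). The p-value's adjustment is not stated. For each of the 8 genes that deposited p lay nearer to the unadjusted p of the edgeR test here than to its adjusted p of 0.999.

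The filter filterByExpr, set to a minimum count of 10 and a total of 15, retained 15859 of 46078 entries. TMM factors ran from 0.988 to 1.01. The test was edgeR's quasi-likelihood test (edgeR 4.0.16, R 4.3.3, 2-sided, no covariate) with Benjamini-Hochberg adjustment at 0.05. It was also run on simulated counts, where the changes put in were larger than the fold changes of the 8 genes. That run therefore does not bear on changes as small as theirs. Alternatives were RLE scaling, no filter, DESeq2 1.42.0, limma voom 3.58.1, the edgeR exact test, a replicate block and leaving out libraries. Log2 CPM used a prior count of 2. Exact permutation tests enumerated all splits or orders of the 8 libraries (scipy 1.17.1 for splits). Counting error is the Poisson error of the reads, which carry no molecular identifiers. The level of 3 counts is 0.107 to 0.142 CPM per library. Positions and exon lengths are from GENCODE M21 (GRCm38), matched by symbol.

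The members, gene lists and markers were chosen with earlier results of these data known. One further gene on the list of relatives is not reported here. Named genes are the 8 members, the highest and lowest of each list, and the 2 genes most like each member. Syt2, Ddx49 and Grm6 fall outside that rule and were added after their values were seen.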

Additional observations from a re-analysis of the deposited data

Results flagged for a closer look

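In 2 cases a library stood far from the other 3 of its group, by a gap between it and the next library that took most of the range of the group. Grm2 was at 73.3 CPM in WT replicate 2, against 56.7 to 59.5 CPM in the other WT libraries (0.831 of the range). Homer2 was at 113 CPM in WT replicate 1, against 129 to 130 CPM in the other WT libraries (0.962 of the range). Each of the 8 genes and Homer1 was looked at in both groups, and chance flags about 1 in 20 groups. Without WT replicate 2 the log2 fold change of Grm2 was 0.19 (unadjusted p = 0.0859 by edgeR), and without WT replicate 1 that of Homer2 was -0.13; neither passed the threshold.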

How the results depend on the processing

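In all 15 alternatives 0 of the 8 genes passed after adjustment (lowest adjusted p 0.891), and Grm4, Grm5, Grm7 and Homer2 kept their sign. Grm5 ran from -0.12 to -0.08, with an unadjusted p under 0.05 in 13 of the 15. Leaving out 1 library moved Grm2 between -0.024 and 0.19, Grm3 between -0.021 and 0.053, and Homer3 between -0.021 and 0.17. Without Cre replicate 1 and WT replicate 1 together, an alternative chosen after seeing the data, Grm8 was at 0.021 and Homer3 at -0.023; the cause was not tested. The count of genes past the threshold ran from 4 to 7, against 5. The labels state no pairing by replicate number, and whether same-numbered libraries pair could not be settled. Over all genes tested, deviations of same-numbered libraries from their group mean correlated at 0.203, -0.114, 0.02 and 0.021 for replicates 1 to 4. Only Cre replicate 1 matched the WT library of its own number best. Cre replicates 2, 3 and 4 matched WT replicates 1, 4 and 2 best. The order by replicate number was the same in both groups for Homer1, a single gene, which cannot settle a pairing. Homer2 was lowest in replicate 1 of each group, and its unadjusted edgeR p was 0.314 without and 0.0846 with the replicate block. With the replicate block 6 genes passed, none of the 8 among them, and Grm5 was at -0.10. Counting error was largest for Grm8 (7.54%), yet its coefficient of variation over all libraries (19.9%) was 2.64 times as large. For Grm7 that ratio was smallest, at 1.54.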
